A study of Mus musculus with 12 samples.

Results

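Genes that carry fatty acids into the cell and burn them were followed in 12 hearts of mouse embryos at E15.5. The set was a list of 34 gene symbols covering 4 roles: 8 genes of uptake and storage, 5 of the carnitine shuttle, 15 of beta-oxidation and 6 regulators. It was chosen with earlier results of these data known, so counts and shares over the list describe it and test nothing. Each gene was represented by its brightest probe, the one with the highest mean log2 signal over the 12 arrays. Of the 34 genes, 33 had a probe under their symbol, out of 19056 gene symbols in the platform annotation. Acsl1, an acyl-CoA synthetase, had none and was not analysed here. Another 4 genes had a mean log2 signal under 7 and were treated as dim. These were Cd36 (mean 5.82), Cpt1a (5.07), Ucp3 (5.05) and Ppara (5.64), on arrays whose lowest value was 4.58 and whose medians were 5.61 to 5.62.

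Fatty acids are freed from circulating triglyceride by lipoprotein lipase, cross the cell membrane with the help of CD36 and fatty acid transport proteins, and are activated to acyl-CoA. They can be stored in lipid droplets coated by perilipins, or pass as carnitine esters into mitochondria, where the beta-oxidation spiral shortens them and hands electrons to the respiratory chain. PPAR nuclear receptors, the oestrogen-related receptor alpha and the coactivator PGC-1alpha switch these genes on together. The heart before birth relies largely on glucose and lactate, and fatty acids become its main fuel after birth.

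The mice carried a gene trap in Ddc (dopa decarboxylase; allele Ddc Gt(OST129277)Lex, mixed strain background), whose heart isoform Ddc_exon1a is read from the paternal copy. WT hearts (n = 3) carried no trap. MatKO hearts (n = 4) inherited it from the mother, PatKO hearts (n = 4) from the father, and the KO heart (n = 1) from both. Homozygous loss is lethal with incomplete survival to this age, so the KO heart came from an embryo that had lived to this stage. Each array held total RNA of 1 whole heart, so fewer cells of a type and less RNA per cell cannot be told apart, and the sources used here do not say which hearts shared a litter.

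Ddc followed the labels: its brightest probe was 13.66 to 14.12 in WT, 13.42 to 13.99 in MatKO and 10.22 to 10.44 in PatKO hearts, and 9.12 in the KO heart. The arrays correlated with each other at 0.983 to 0.993. Hearts of every genotype with more than 1 heart lay on both sides of the first principal component of 16074 probes outside the gene list, which held 27% of their variance. WT replicate 1, MatKO replicates 3 and 4, PatKO replicates 1 and 2 and the KO heart were on its negative side. The labels give no name to this split, so values within each side are given beside each comparison of genotypes. The arrays were run on 2 slides of 6, and which hearts shared a slide is not given. Differences between slides and between hearts therefore cannot be told apart here, and whether the split follows the slides was not tested.

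In the heart-by-heart means, the fatty acid genes were low in the 4 MatKO hearts, the KO heart and WT replicate 1, and high in the other WT hearts and in 3 of 4 PatKO hearts. Each gene's log2 signal was expressed as its deviation from its own mean over the 12 hearts and averaged over the 33 genes. The mean deviation was -0.14 in WT replicate 1, 0.32 in replicate 2 and 0.24 in replicate 3. It was -0.19, -0.20, -0.17 and -0.08 in MatKO replicates 1 to 4, and -0.03, 0.16, 0.12 and 0.11 in PatKO replicates 1 to 4. In the KO heart it was -0.14. All 4 MatKO hearts were below all 4 PatKO hearts, and the WT hearts spanned both. PatKO and KO hearts, which both carry the trap on the copy that the heart reads, were on opposite sides of the MatKO to PatKO gap.

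**Figure D1:**
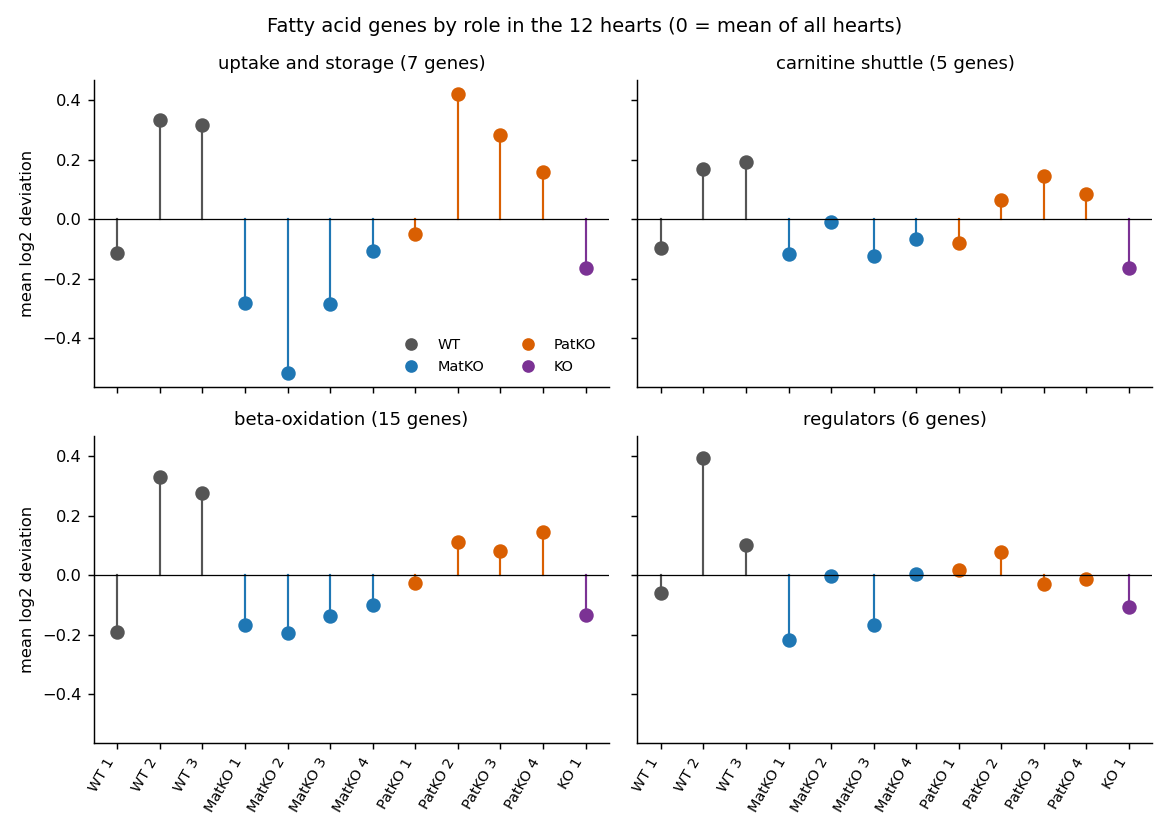
Mean log2 deviation from each gene's own 12-heart mean (y axis), averaged over the genes of 4 roles, for each heart (x axis, coloured by genotype; points are single hearts and have no error bar). WT replicates 2 and 3 and PatKO replicates 2 to 4 are above 0 for uptake and storage, the carnitine shuttle and beta-oxidation. The MatKO hearts, the KO heart and WT replicate 1 are below 0 for the same 3 roles, as is PatKO replicate 1 (-0.05, -0.08 and -0.025).

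The PatKO to MatKO comparison sets hearts that lost the paternal copy against hearts with the same trap on the silent copy. Signals were higher in PatKO hearts for 28 of the 33 genes, with a median log2 difference of 0.20. Over all 45267 probes 48.9% were higher, with a median of -0.004, and over the 16120 probes with a mean of 7 or more 48.1% were. No fatty acid gene passed an adjusted p of 0.05 in limma, a threshold that 0.00663% of all probes passed, and these were the Ddc probes. At an unadjusted p under 0.05, 9 genes (27.3%) were higher and 0 were lower. Of all probes, 3.3% were higher and 3.82% lower at that p, and of those with a mean of 7 or more, 5.06% were higher. Because the list was chosen with results of these data known, the gap between these shares is a description and not a test. Every PatKO heart was above every MatKO heart for 8 genes (24.2%), against 2.15% of all probes and 3.37% of the brighter ones. For 0 genes was the order reversed (2.59% of all probes). The count uses the brightest probe. For Acaa2, Etfa and Slc25a20, further probes with a mean of 7 or more overlapped between these groups. Without PatKO replicate 2 the number at an unadjusted p under 0.05 was 5 (15.2%, against 5.9% of all probes in either direction). Leaving out any other heart left it between 6 and 12 (18.2% to 36.4%, against 5.87% to 7.94%). Within the negative side of the first component 27 genes were higher in PatKO (median 0.12, 2 hearts against 2, 48.9% of all probes higher). Within the positive side 28 were (median 0.26, 2 against 2, 49.1% of all probes).

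The MatKO to WT comparison was nearly the reverse. It shares the MatKO hearts with the one before, so the values stand side by side and neither is evidence for the other. Signals were lower in MatKO hearts for 28 of 33 genes, with a median log2 difference of -0.21, where 51.2% of all probes were higher and their median was 0.004. Again no fatty acid gene passed an adjusted p of 0.05 in limma, and 0% of all probes did. At an unadjusted p under 0.05, 9 genes were lower (27.3%, against 2.47% of all probes) and 0 were higher (2.41%). For 5 genes (15.2%, against 2.42% of all probes) every MatKO heart was below every WT heart, and for 0 genes was every MatKO heart above them (2.65%).

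The size of this difference depended on the WT hearts. WT replicate 1 had the lowest value of the 3 WT hearts for 26 of the 33 genes. The same count was not made over all probes, so whether it is particular to these genes is not known. Without it 21 genes (63.6%) reached an unadjusted p under 0.05, 20 of them lower in MatKO, with a median of -0.37. The share of all probes at that p, in either direction, also went up, from 4.88% to 8.47%. Without WT replicate 2 the number was 3 (9.09%, against 4.59% of all probes), and without replicate 3 it was 5 (15.2%, against 4.71%). Within the negative side, where WT replicate 1 is the only WT heart, 20 of 33 genes were higher in MatKO (median 0.04, 53.5% of all probes higher), and within the positive side 2 were (median -0.37, 50.4% of all probes).

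In the PatKO to WT comparison the direction depended on which hearts were set against each other. Of 33 genes, 14 were higher and 19 lower in PatKO, with a median log2 difference of -0.04, and 50% of all probes were higher. This median lay between opposite shifts. Within the negative side of the first component, with WT replicate 1 as the only WT heart, 25 genes were higher in PatKO (median 0.18, 51.1% of all probes higher). Within the positive side, 2 hearts against 2, 7 were higher (median -0.10, 49.9% of all probes). Only Cd36 reached an unadjusted p under 0.05, and it was lower (2.17% of all probes were lower and 1.75% higher at that p). The same gene was the only one whose groups did not overlap (2.48% of all probes had every PatKO heart below the WT hearts and 2.21% above). Without WT replicate 1 the count at an unadjusted p under 0.05 was 6 (18.2%, against 5.99% of all probes), 5 of them lower in PatKO, and without WT replicate 3 it was 2 (6.06%, against 5.61%). The study also pooled PatKO with KO hearts against WT with MatKO hearts. In that comparison 24 genes were higher in the 5 hearts without paternal Ddc, with a median log2 difference of 0.06. Of all 45267 probes, 21633 were higher, with a median of -0.006. In limma 0 genes reached an unadjusted p under 0.05 (2.78% of all probes were higher and 2.68% lower at that p) and none an adjusted p of 0.05 (0.00884% of all probes). Without WT replicate 2 or without the KO heart 2 genes reached an unadjusted p under 0.05, and without WT replicate 3 it was 1 (3.03% to 6.06% of the genes, against 5.4% to 6.79% of all probes). Within the negative side 25 genes were higher in the hearts without paternal Ddc (median 0.10, 3 hearts against 3, 48.2% of all probes higher). Within the positive side 24 were (median 0.07, 2 against 4, 48.6% of all probes).

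**Figure D2:**
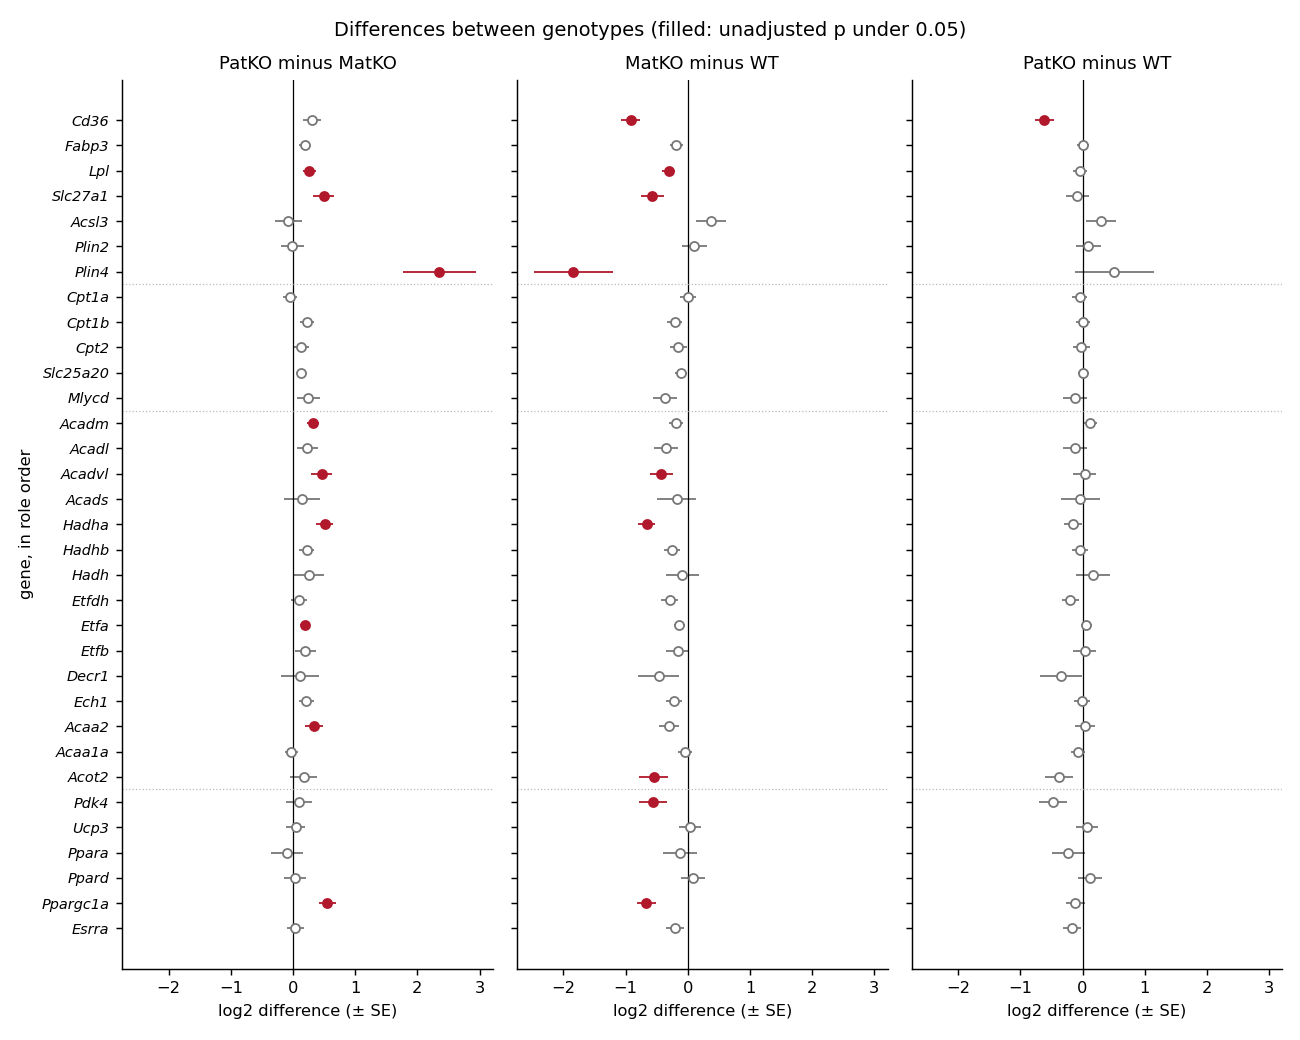
Log2 difference ± SE (x axis, the same scale in each panel) of the 33 genes (y axis, ordered by role with dotted lines between roles) for PatKO minus MatKO, MatKO minus WT and PatKO minus WT, from 1 limma fit; filled points have an unadjusted p under 0.05. The 9 filled points of the first panel are all above 0, the 9 of the second all below 0, and the third has Cd36 alone.

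Uptake and storage genes had the widest spread. Plin4, a perilipin that coats lipid droplets in muscle and fat, had the largest range of the list. Its log2 signal was 7.38, 10.15 and 10.47 in the 3 WT hearts, 7.42, 7.54, 7.31 and 7.71 in the MatKO hearts, 8.80, 9.97, 10.47 and 10.16 in the PatKO hearts and 7.55 in the KO heart. The values fell into 2 levels. All 4 MatKO hearts, the KO heart and WT replicate 1 were at the low level, 5 hearts were near 10, and PatKO replicate 1 was between them. PatKO hearts were 5.12-fold above MatKO hearts (log2 difference 2.36 ± 0.59 SE, adjusted p = 0.448 in limma; exact permutation p = 0.0286, two-sided, the smallest that 4 hearts against 4 allow). MatKO hearts were 3.59-fold below WT hearts (-1.84 ± 0.64, adjusted p = 0.999 in limma), and those groups overlapped through WT replicate 1, without which the log2 difference was -2.82. Leaving out 1 heart at a time kept the PatKO to MatKO log2 difference between 2.15 and 2.71, and adding 100 to the linear signals gave 1.88.

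Cd36, a receptor that takes up long-chain fatty acids, had dim signals that separated WT from both heterozygotes. They were 6.33, 6.36 and 6.47 in WT, 5.14, 5.39, 5.59 and 5.75 in MatKO, 5.67, 6.04, 5.83 and 5.55 in PatKO and 5.66 in the KO heart. Every heart with a trap allele was below every WT heart, WT replicate 1 included. The log2 difference was -0.92 ± 0.15 for MatKO minus WT (unadjusted p = 9.26e-05, adjusted p = 0.813 in limma; exact permutation p = 0.0286, the smallest for 3 hearts against 4). It was -0.62 ± 0.15 for PatKO minus WT (adjusted p = 1 in limma; exact permutation p = 0.0571). Because the probe was dim, the size depended on the scale: with 100 added to the linear signals the differences were -0.35 and -0.25.

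Slc27a1, a fatty acid transport protein, was 8.42, 8.91 and 8.70 in WT, 8.17, 7.75, 8.12 and 8.39 in MatKO, 8.35, 8.98, 8.58 and 8.48 in PatKO and 8.68 in the KO heart. The MatKO hearts were all below the WT hearts, and MatKO replicate 4 lay above PatKO replicate 1. The log2 difference was 0.49 ± 0.17 for PatKO minus MatKO (adjusted p = 0.571 in limma) and -0.57 ± 0.19 for MatKO minus WT (adjusted p = 0.999). Lpl, the lipoprotein lipase, had a narrow range: 14.60 to 14.91 in WT, 14.39 to 14.62 in MatKO and 14.67 to 14.92 in PatKO, with no overlap between MatKO and PatKO (0.26 ± 0.10). Fabp3, the heart's cytosolic fatty acid binding protein, gave 0.19 ± 0.09 in the same comparison.

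Acsl3, an acyl-CoA synthetase of the endoplasmic reticulum and lipid droplets, went the other way from most of the list. Its log2 signal was 12.39, 11.54 and 11.74 in WT, 12.47, 11.74, 12.36 and 12.49 in MatKO, 12.15, 12.53, 11.93 and 12.14 in PatKO and 12.46 in the KO heart. WT replicate 1 was the highest WT heart here, and all groups overlapped. The largest log2 difference was 0.38 ± 0.24, for MatKO minus WT (adjusted p = 0.999 in limma), and it was 0.63 without WT replicate 1 and 0.20 without WT replicate 2. Plin2, a perilipin of most tissues, had differences of at most 0.11 ± 0.20 on the log2 scale in the 3 comparisons of genotypes, unlike Plin4.

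The 5 carnitine shuttle genes differed by at most 0.37 on the log2 scale in the 3 comparisons of genotypes. Cpt1b, the muscle form of the enzyme that makes acylcarnitine, was 13.57 to 13.96 in WT, 13.50 to 13.66 in MatKO and 13.59 to 13.99 in PatKO hearts. Slc25a20, the carnitine-acylcarnitine carrier of the inner membrane, had the smallest spread of all 33 genes and still no overlap between MatKO (12.95 to 12.98) and PatKO (13.01 to 13.20). Its log2 difference was 0.13 ± 0.09. On its second probe these hearts overlapped, with a difference of 0.07 ± 0.11. Mlycd, which breaks down malonyl-CoA, the inhibitor of CPT1, had the largest, -0.37 ± 0.19 for MatKO minus WT, which was -0.58 without WT replicate 1 and -0.22 without WT replicate 2. For PatKO minus MatKO it was 0.25 ± 0.18. None of the 5 reached an unadjusted p under 0.05 in any comparison with its brightest probe. Second probes of Cpt1b and Cpt2, the enzyme that releases acyl-CoA inside the mitochondrion, gave 0.29 ± 0.11 (unadjusted p = 0.0195 in limma) and 0.21 ± 0.09 (unadjusted p = 0.0421) for PatKO minus MatKO. For MatKO minus WT they gave -0.23 ± 0.11 (unadjusted p = 0.0702 in limma) and -0.28 ± 0.10 (unadjusted p = 0.0187). The second Slc25a20 probe, with a mean of 9.66, gave -0.32 ± 0.12 (unadjusted p = 0.0247 in limma) there, where the brightest gave -0.11 ± 0.10. The liver form Cpt1a was at 4.87 to 5.31 in all hearts, close to the lowest values of the arrays.

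Of the 15 beta-oxidation genes, 14 were higher in PatKO than in MatKO hearts (median log2 difference 0.21) and all 15 were lower in MatKO than in WT hearts (median -0.26). Of all probes, 48.9% were higher in the first comparison and 51.2% in the second. At an unadjusted p under 0.05, 5 were higher in PatKO than in MatKO hearts (33.3%, against 3.3% of all probes) and 3 were lower in MatKO than in WT hearts (20%, against 2.47%). In WT replicates 2 and 3 all 15 were above their own 12-heart mean. The number was 2 in WT replicate 1, between 3 and 4 in the MatKO hearts, between 8 and 12 in the PatKO hearts and 1 in the KO heart.

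Hadha, the alpha subunit of the trifunctional protein that handles long-chain acyl-CoA, separated MatKO hearts from all others. Its log2 signal was 9.66, 9.49 and 9.40 in WT, 8.72, 9.09, 8.96 and 8.64 in MatKO, 9.59, 9.25, 9.15 and 9.46 in PatKO and 9.14 in the KO heart. The 4 MatKO hearts were the lowest of all 12, and WT replicate 1 was the highest, so this gene did not share the low value of that heart. MatKO hearts were 1.58-fold below WT hearts (-0.66 ± 0.14, adjusted p = 0.813 in limma; exact permutation p = 0.0286) and PatKO hearts 1.42-fold above MatKO hearts (0.51 ± 0.13, adjusted p = 0.448 in limma; exact permutation p = 0.0286). Hadhb, the beta subunit, lies next to it on chromosome 5, 272 bases away (GRCm38.p6, Hadha 30119423 to 30154980, Hadhb 30155253 to 30184593). Its log2 differences were smaller, -0.26 ± 0.13 for MatKO minus WT and 0.22 ± 0.12 for PatKO minus MatKO, and its groups overlapped in both.

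The acyl-CoA dehydrogenases catalyse the first step of each turn. Acadm, the medium-chain enzyme, was 14.69, 14.98 and 15.01 in WT, 14.66, 14.60, 14.80 and 14.76 in MatKO, 14.96, 15.22, 14.94 and 14.97 in PatKO and 14.69 in the KO heart. PatKO and MatKO hearts did not overlap, and WT replicate 1 and the KO heart were at the MatKO level. The log2 difference was 0.32 ± 0.10 for PatKO minus MatKO (adjusted p = 0.524 in limma; exact permutation p = 0.0286). It was 0.17 ± 0.10 when PatKO and KO hearts were set against WT and MatKO hearts (adjusted p = 0.954 in limma).

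Acadvl, the very-long-chain enzyme, was 12.86, 13.68 and 13.57 in WT, 12.82, 13.16, 12.84 and 12.96 in MatKO, 13.16, 13.53, 13.46 and 13.46 in PatKO and 12.96 in the KO heart. MatKO replicate 2 and PatKO replicate 1 met at 13.16, and WT replicate 1 was again at the MatKO level. The log2 difference was 0.46 ± 0.17 for PatKO minus MatKO (adjusted p = 0.595 in limma). For Acadl and Acads, the long-chain and short-chain enzymes, it was 0.23 ± 0.17 and 0.14 ± 0.29.

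Electrons from these dehydrogenases pass to the flavoprotein made of Etfa and Etfb and on to its oxidoreductase Etfdh. Etfa was 14.87, 15.04 and 15.04 in WT, 14.71, 14.93, 14.89 and 14.85 in MatKO, 14.98, 15.00, 15.14 and 15.05 in PatKO and 14.79 in the KO heart. PatKO hearts were all above MatKO hearts, by 0.20 ± 0.08 on the log2 scale (adjusted p = 0.661 in limma; exact permutation p = 0.0286). On further Etfa probes these groups overlapped, with log2 differences of 0.20 and 0.25. The Etfb log2 difference, 0.20 ± 0.17, came with overlapping groups.

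Etfdh was 13.28, 13.61 and 13.80 in WT, 13.24, 13.40, 13.13 and 13.32 in MatKO, 13.26, 13.60, 13.23 and 13.37 in PatKO and 13.28 in the KO heart. WT replicates 2 and 3 were the highest hearts and the trap genotypes overlapped each other. The log2 difference was -0.20 ± 0.14 for PatKO minus WT (adjusted p = 1 in limma), -0.34 without WT replicate 1 and -0.08 without WT replicate 3, and a mean over all Etfdh probes gave 0.01. A second Etfdh probe, with a mean of 8.08, gave 0.71 ± 0.18 for PatKO minus MatKO where the brightest gave 0.09 ± 0.13, so the 2 probes disagree in size.

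Among the later enzymes and the accessory ones, Acaa2, the mitochondrial thiolase, had no overlap between MatKO (13.37 to 13.66) and PatKO hearts (13.74 to 13.91). The log2 difference was 0.33 ± 0.15. Other Acaa2 probes gave 0.254 to 0.375, and on each of them MatKO and PatKO hearts overlapped. Decr1, the dienoyl-CoA reductase needed for unsaturated fatty acids, separated the WT hearts more than the genotypes: 9.02 in WT replicate 1 against 10.43 and 10.33 in the others. It was 9.21 to 9.70 in MatKO and 9.18 to 9.96 in PatKO hearts. The peroxisomal thiolase Acaa1a was among the flattest genes, 13.21 to 13.63 over all hearts.

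Acot2, a mitochondrial acyl-CoA thioesterase, was 9.68, 10.71 and 10.18 in WT, 9.43, 9.49, 9.69 and 9.94 in MatKO, 10.05, 10.04, 9.62 and 9.53 in PatKO and 9.56 in the KO heart. WT replicate 2 was the highest heart and all groups overlapped. Its log2 difference was -0.55 ± 0.23 for MatKO minus WT (adjusted p = 0.999 in limma) and -0.38 ± 0.23 for PatKO minus WT (adjusted p = 1). Without WT replicate 2 these were -0.29 and -0.12, and without WT replicate 1 the second was -0.64. Acot2 has a close paralog in Acot1 and Acaa1a in Acaa1b, and whether their probes tell the copies apart was not tested.

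**Figure D3:**
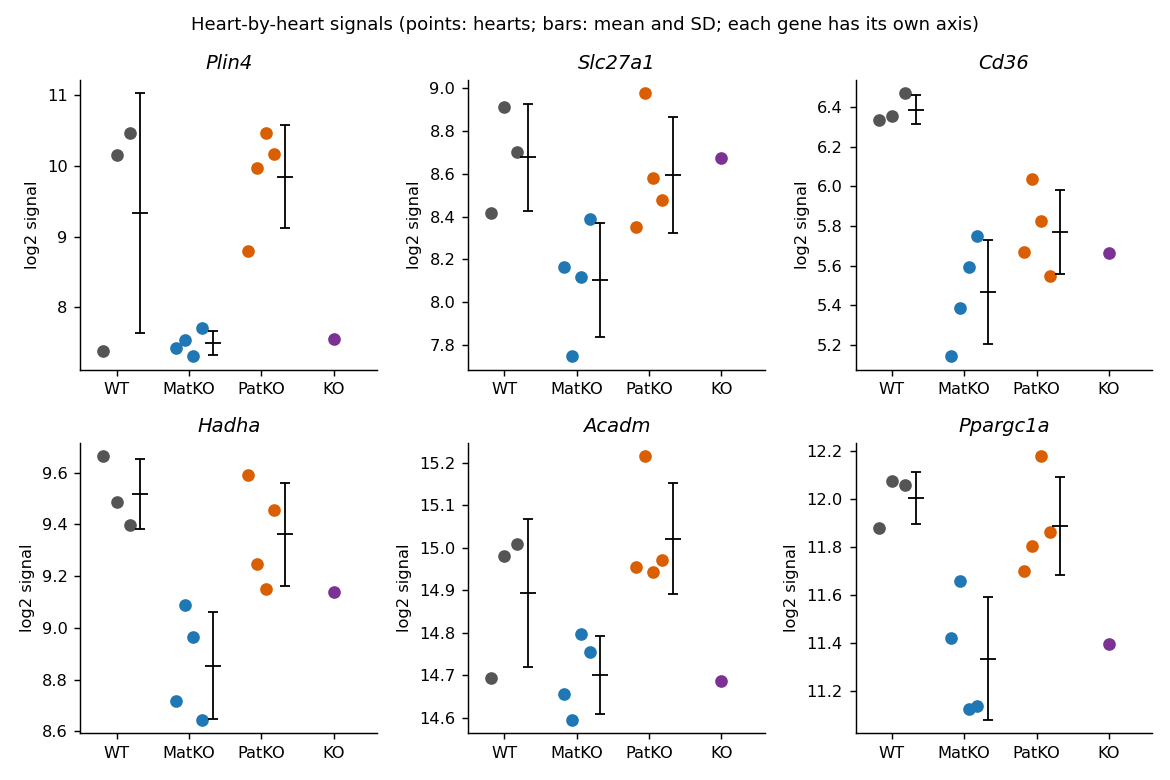
Log2 signals (y axis, a separate scale for each gene, not starting at 0) of 6 genes in WT, MatKO, PatKO and KO hearts (x axis); points are single hearts, and the bars beside them are the mean and SD of groups with more than 1 heart. Plin4 is at 7.31 to 7.71 in the MatKO hearts and 8.80 to 10.47 in the PatKO hearts, Hadha and Ppargc1a are lowest in MatKO hearts, and Cd36 is highest in the 3 WT hearts.

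The regulators were less uniform. Ppargc1a encodes PGC-1alpha, the coactivator of mitochondrial and fatty acid oxidation genes. Its log2 signal was 11.88, 12.07 and 12.06 in WT, 11.42, 11.66, 11.12 and 11.14 in MatKO, 11.70, 11.80, 12.18 and 11.86 in PatKO and 11.40 in the KO heart. No MatKO heart reached a WT or PatKO heart, and the KO heart was within the MatKO range. MatKO hearts were 1.59-fold below WT hearts (-0.67 ± 0.15, adjusted p = 0.894 in limma; exact permutation p = 0.0571) and PatKO hearts 1.47-fold above MatKO hearts (0.55 ± 0.14, adjusted p = 0.448 in limma; exact permutation p = 0.0286). PatKO and WT hearts differed by -0.12 ± 0.15.

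Pdk4, the kinase that shuts down pyruvate dehydrogenase when fatty acids are burned, was 11.34, 12.43 and 11.46 in WT, 11.13, 10.96, 11.33 and 11.32 in MatKO, 11.40, 11.28, 11.19 and 11.24 in PatKO and 11.36 in the KO heart. WT replicate 2 stood 0.97 above the next WT heart. Every MatKO heart was below every WT heart, the nearest being 11.33 in MatKO replicate 3 and 11.34 in WT replicate 1. The log2 difference was -0.56 ± 0.22 for MatKO minus WT (adjusted p = 0.999 in limma) and -0.47 ± 0.22 for PatKO minus WT (adjusted p = 1). Without WT replicate 2 these were -0.22 and -0.13.

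For the receptors themselves, differences were small for Ppard and depended on the probe for Esrra. Ppard had log2 differences of 0.03 ± 0.18 for PatKO minus MatKO and 0.09 ± 0.19 for MatKO minus WT. The brightest probe of Esrra, the oestrogen-related receptor alpha, gave 0.04 ± 0.14 and -0.21 ± 0.15. Its second probe, with a mean of 11.51, gave 0.41 ± 0.12 (unadjusted p = 0.00684, adjusted p = 0.492 in limma) and -0.33 ± 0.13 (unadjusted p = 0.0285, adjusted p = 0.999). On that probe MatKO hearts, up to 11.40, did not overlap PatKO hearts, from 11.47. Ppara and the uncoupling protein Ucp3 were dim, at 5.24 to 6.27 and 4.80 to 5.33, and carry little information on these arrays. With every probe of a mean of 7 or more, 11 genes had several probes (28 probes in all): their signs were the same within all 11 for PatKO minus MatKO and for MatKO minus WT, and within 4 of the 11 for PatKO minus WT.

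**Figure D4:**
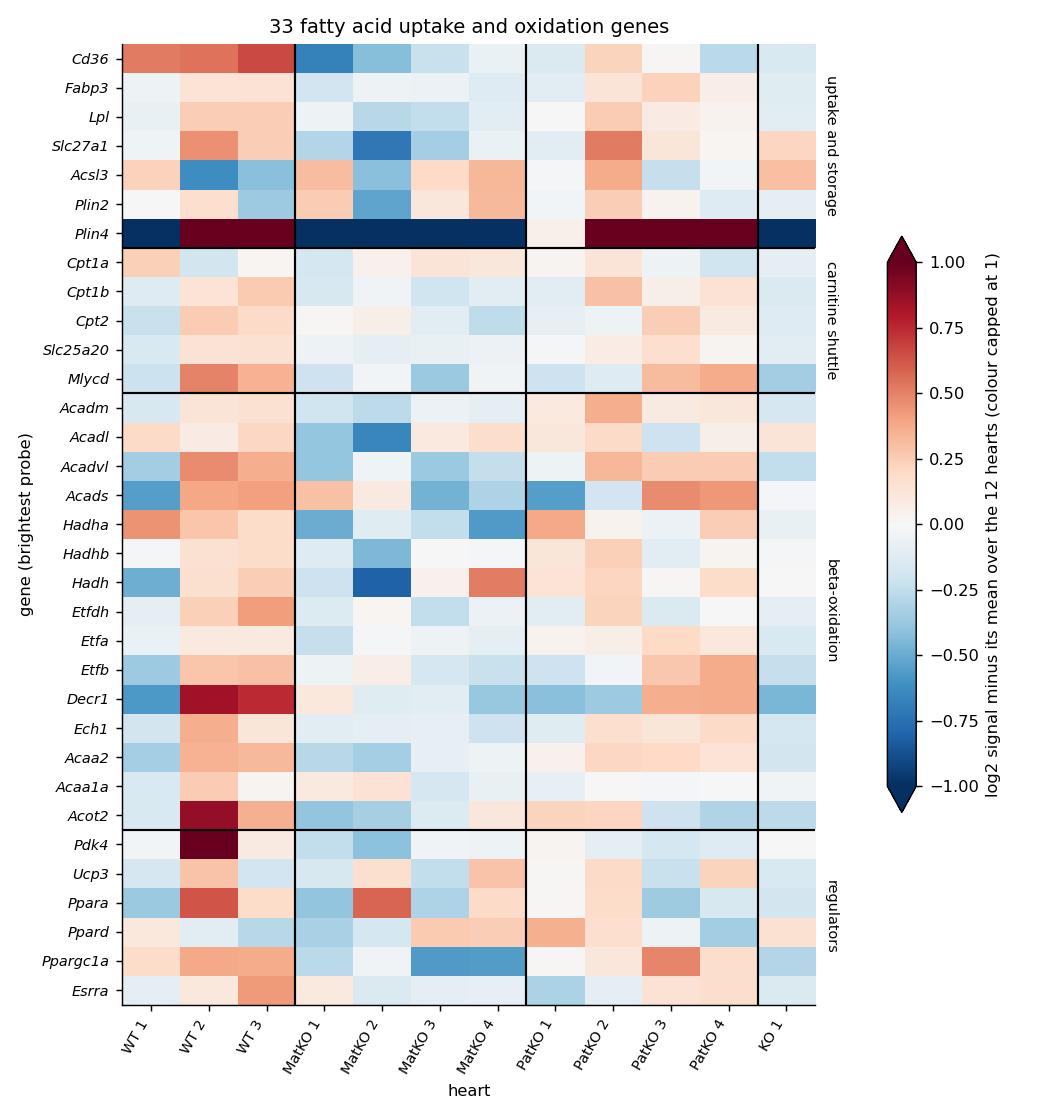
Log2 signal minus its mean over the 12 hearts (colour, capped at 1 in either direction) for the 33 genes (rows, grouped by role) in each heart (columns, grouped by genotype). WT replicates 2 and 3 are red for all 15 beta-oxidation genes, WT replicate 1 and the KO heart are mostly blue, and Plin4 has the strongest contrast.

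The promoter sequences of these genes were read for the half-site AGGTCA, which PPAR and oestrogen-related receptors recognise, on both strands of RefSeq promoters (GRCm38.p6, 250 bases before to 50 after the start). A promoter entry was found for 30 of the 34 genes (33 entries). The half-site was in 6 of the 33 (18.2%) and in 16.3% of all 32851 promoters. The extended oestrogen-related receptor site TCAAGGTCA was in 0 of the 33 (0.423% of all promoters), and the DR1 element of PPARs, a direct repeat of the half-site with 1 base between, was in 0 (0.0396% of all). Both longer motifs contain AGGTCA. The 3 stretches that lie by genes whose heart-by-heart values are given above are shown on the gene's own strand, with the half-site or its complement TGACCT in capitals.
Acadm: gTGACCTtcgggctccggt
Acadvl: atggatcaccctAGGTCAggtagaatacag
Cd36: ctctgcactttaTGACCTgagattttcagg
They lie at chr3:153944875-153944893, chr11:70015498-70015527 and chr5:17836107-17836136, all on the minus strand, and the half-sites begin at positions -249, -87 and -228 relative to the start of the promoter entry. The Cd36 stretch lies inside the span of its gene (17781690 to 17888959), so its start is an internal one. The 3 genes differed in their pattern over the hearts, and a match of letters says nothing of what is bound there.

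The KO heart was set beside the other genotypes without a test, since it was a single heart. It was below the range of the WT hearts for 12 of the 33 genes, within it for 19 and above it for 2 (Acsl3 and Ppard). It lay within the MatKO range for 27 genes. Against the PatKO hearts it was below the range for 17, within it for 16 and above it for 0. Its difference from the WT mean was negative for 30 genes, with a median log2 difference of -0.23. The same counts were not made over all probes, so no share stands beside them. WT replicate 1 was the only WT heart on the same side of the first component. Its mean deviation over the 33 genes was -0.135, against -0.139 in the KO heart. WT replicates 2 and 3, on the other side, had 0.318 and 0.24.

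Other genes of the same pathways were taken from lists of 95 symbols, of which 88 were measured. In PatKO minus MatKO, 64 were higher and 24 lower (median log2 difference 0.10), and the test before adjustment put 11 above (12.5%, against 3.3% of all probes) and 2 below (2.27%, against 3.82%) at a p under 0.05. In MatKO minus WT, 23 were higher and 65 lower (median -0.08), and the same test put 1 above (1.14%, against 2.41% of all probes) and 3 below (3.41%, against 2.47%), shares near those of all probes. None passed an adjusted p of 0.05 in limma. Mgll, the monoglyceride lipase, was 10.88, 10.95 and 11.51 in WT, 10.23, 10.45, 10.79 and 10.82 in MatKO, 10.97, 11.63, 11.63 and 11.73 in PatKO and 10.64 in the KO heart. PatKO hearts were all above MatKO hearts, by 0.92 ± 0.21 on the log2 scale (adjusted p = 0.425 in limma).

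Dgat2, which makes triglyceride, separated the same groups. It was 10.46 to 10.95 in MatKO and 11.26 to 11.89 in PatKO hearts (0.97 ± 0.27, adjusted p = 0.484 in limma), with WT replicate 1 at 10.40 and the other WT hearts at 11.78 and 11.62. Crat, the carnitine acetyltransferase, gave 0.48 ± 0.16 (adjusted p = 0.544 in limma). Plin5, a perilipin that ties lipid droplets to mitochondria, was singled out after its values were seen because it lies 1648 bases from Plin4 on chromosome 17. It was 5.59, 8.88 and 8.73 in WT, 6.71, 6.48, 6.10 and 6.45 in MatKO, 7.85, 7.55, 8.65 and 8.43 in PatKO and 6.38 in the KO heart. As for Plin4, the MatKO hearts, the KO heart and WT replicate 1 were the low ones (PatKO minus MatKO 1.68 ± 0.61, adjusted p = 0.577 in limma).

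For PatKO against WT and for the pooled comparison, the smallest p-values of these lists belonged to other genes, 2 of them peroxisomal. Acox2, a peroxisomal oxidase of branched chains and bile acid precursors, was 5.41 to 6.52 in WT, 5.50 to 6.32 in MatKO, 6.30 to 7.39 in PatKO and 7.49 in the KO heart. Slc27a2, a very-long-chain transporter and synthetase of liver and kidney, was 5.12 to 5.27 in WT, 5.23 to 5.82 in MatKO and 8.19 in the KO heart, and in PatKO it was 7.94, 7.05, 4.99 and 7.28. PatKO replicate 3 was at the WT level and the other 3 PatKO hearts were above it. The log2 differences for PatKO with KO against WT with MatKO were 1.04 ± 0.26 and 1.71 ± 0.43 (adjusted p = 0.647 in limma for both), and for Bbox1, the last enzyme of carnitine synthesis and dim here, 0.31 ± 0.08 (adjusted p = 0.721). Ehhadh, the peroxisomal bifunctional enzyme, gave 0.56 ± 0.17 for PatKO minus WT (adjusted p = 1).

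Slc27a2 was highest in hearts where markers of liver were high. The mean deviation of 20 liver markers was -1.36 to -1.05 in WT, -1.49 to 0.69 in MatKO, -1.52 to 1.89 in PatKO and 2.42 in the KO heart. Of the 20, 19 were higher in PatKO than in MatKO hearts (median log2 difference 1.29). The fetal protein Afp was 10.49 to 12.62 in MatKO replicates 3 and 4, PatKO replicates 1, 2 and 4 and the KO heart, and 4.88 to 6.23 in the others, while the Alb, Apoc3 and Fgb probes were at 4.65 to 5.32 in all hearts. With the liver mean as a covariate, the 33 fatty acid genes had a median log2 difference of 0.23 for PatKO minus MatKO, with 26 higher. In that fit 7 genes (21.2%, against 7.35% of all probes) had an unadjusted p under 0.05. The liver mean itself went partly with genotype, so this fit cannot tell liver signal and genotype apart. Whether liver tissue has a part in the fatty acid gene differences was not tested.

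Heart muscle markers were present throughout. The mean deviation of 14 cardiomyocyte markers was -0.014 to 0.003 in WT, -0.095 to -0.027 in MatKO, 0.034 to 0.087 in PatKO and 0.013 in the KO heart, so MatKO and PatKO hearts did not overlap here either, over a narrower range than the fatty acid genes. At an unadjusted p under 0.05 in limma, 3 of the 14 (21.4%) were higher in PatKO than in MatKO hearts, against 3.3% of all probes. Macrophage and neutrophil markers were higher in PatKO than in MatKO hearts for 13 of 14 (median 0.36), and their mean deviation was -0.588 to 0.058 in MatKO and 0.089 to 1.235 in PatKO. At that p, 3 of these 14 (21.4%), 7 of the 20 liver markers (35%) and 3 of 11 skeletal muscle markers (27.3%) were higher in PatKO hearts. Such shares were therefore not particular to the fatty acid genes (27.3%). Of 11 markers of brown and white fat, 8 were dim, among them Ucp1, Plin1 and Fabp4, which were at 4.79 to 5.41 in every heart. Adipoq was 8.50 in WT replicate 1 and 7.59 in PatKO replicate 2, and 4.98 to 5.97 in the others. The fat markers that were not dim were Pparg, the nuclear receptor of fat cells, Cidea, a lipid droplet protein of brown fat, and Prdm16, with log2 differences of 0.75 (unadjusted p = 0.0327 in limma), 0.44 and -0.01 for PatKO minus MatKO. Xist was at 4.75 to 5.99 in MatKO replicate 3 and PatKO replicates 1 and 3 and at 12.57 to 13.52 in the other hearts, and with it as a covariate the median difference of the fatty acid genes was 0.20 for PatKO minus MatKO.

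Fibroblast and epicardial markers were mostly lower in PatKO than in MatKO hearts, and the 2 groups nearly met. The mean deviation of 12 of them was -0.004 to 0.392 in MatKO and -0.292 to -0.005 in PatKO hearts, -0.127 to 0.104 in WT and -0.128 in the KO heart. In PatKO minus MatKO, 8 were lower and 4 higher, the highest by 0.201. At an unadjusted p under 0.05 in limma, 3 were lower (25%, against 3.82% of all probes) and 0 higher (3.3%). Tcf21, a transcription factor of epicardium and fibroblasts, had a log2 difference of -0.66 (unadjusted p = 0.000562 in limma), and the epicardial genes Upk1b and Upk3b -0.79 and -0.72. Of 9 red cell markers, 6 were higher and 3 lower in PatKO than in MatKO hearts. The 3 were the embryonic globins Hbb-y, Hbb-bh1 and Hba-x, with log2 differences of -1.55, -1.20 and -0.93, while Alas2, the first enzyme of haem synthesis in red cells, gave 1.56. Alas2 was 11.38 to 12.53 in MatKO and 13.50 to 13.97 in PatKO hearts, 11.59, 12.76 and 14.04 in WT and 13.75 in the KO heart. None of these markers passed an adjusted p of 0.05 in limma. The part of cardiomyocytes, liver tissue, immune cells, fat cells, fibroblasts, epicardium and red cells in the fatty acid gene differences was not tested.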

How the data were processed

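Total RNA of 12 hearts was hybridised to Illumina WG-6 arrays, 2 slides of 6 arrays. The authors deposited log2 signals, background-corrected and normalized with neqc and fitted in limma per the study's methods; the submitters' notes name GenomeStudio and limma without versions. The deposited log2 values of 45267 probes were used as given. Another 24 scanner columns (12 signals, 12 detection p-values) carry names that map to no heart and were not used, so neqc was not repeated and the slide could not be fitted. Of the probes, 34875 had 1 gene symbol, 18 several and 10374 none listed.

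A limma fit (3.58.1, R 4.3.3) of genotype over all 12 hearts gave the differences between genotypes, and a separate fit of 2 groups gave the pooled comparison, with Benjamini-Hochberg adjustment over all probes; the fit was tested on simulated data. Exact two-sided permutation tests used group means. The number of hearts limits the precision. Values per heart are given for genes with an unadjusted p under 0.01 and a log2 difference over 0.4, and for the 5 genes with the smallest p in each comparison. Of other pathway genes, the 3 with the smallest p in a comparison were eligible. The genes, lists and tests were chosen with earlier results of these data known.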

Additional observations from a re-analysis of the deposited data

Results flagged for a closer look

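In groups of 4 hearts, 1 of 66 gene and group combinations had a heart far from the others. Acadm was 15.215 in PatKO replicate 2 and 14.944 to 14.972 in the other PatKO hearts, a gap of 0.897 of the range of the group. About 1 in 20 such groups is marked by chance. Without that heart the PatKO minus MatKO log2 difference of Acadm was at its lowest, 0.26.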

How the results depend on the processing

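The alternatives to the fit described were the replicate block, a variance trend with robust moderation, weights for arrays, the compared arrays alone, Xist or the liver mean as a covariate, dim probes left out, 100 added to the linear signals and a mean over all probes of a gene. The split by the first principal component was added after seeing the data. The number of genes at an unadjusted p under 0.05 was 9, 1, 9 and 0 for PatKO minus MatKO, PatKO minus WT, MatKO minus WT and PatKO with KO minus WT with MatKO. These were 27.3%, 3.03%, 27.3% and 0% of the list, against 7.12%, 3.93%, 4.88% and 5.46% of all probes in either direction. For PatKO minus WT it was 2 with array weights, the variance trend or the liver mean (6.06%, against 3.65% to 4.64% of all probes). It was 0 without dim probes, where Cd36 was left out (3.19% of the probes kept). For MatKO minus WT it was 15 with the variance trend (45.5%, against 4.4% of all probes) and 6 with the compared arrays alone (18.2%, against 4.2%). With array weights or with 100 added it was 11 (33.3%, against 4.73% to 5.08%). For the pooled comparison it was 2 with the liver mean (6.06%, against 6.84% of all probes). It was 1 with the side of the first component as a block (3.03%, against 6.96%). Within the negative side the median log2 difference was 0.18 for PatKO minus WT and 0.036 for MatKO minus WT, and within the positive side -0.097 and -0.367 in that order. Leaving out 1 heart at a time gave 5 to 12, 1 to 6, 3 to 21 and 0 to 2 genes in that order, and 3 to 7, 3 to 7, 0 to 4 and 3 to 19 of all probes past an adjusted p of 0.05 in limma, none of them of the list. Shares of all probes at the unadjusted p were then 5.87% to 7.94%, 3.39% to 5.99%, 4.29% to 8.47% and 4.39% to 6.79%. The median of MatKO minus WT ranged from -0.366 to -0.15. Of 433 tested alternatives of the 20 gene and comparison pairs described, 1 changed sign (Etfdh, PatKO minus WT, 0.014 with the mean over all probes) and 0 passed an adjusted p of 0.05 in limma; the smallest was 0.0905, for Plin4. The cause of these shifts was not tested.

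Same-numbered hearts did not deviate together (2 of 10 pairs correlated over 0.1), so the numbers only name hearts. With the replicate number as a block, 9, 1, 8 and 0 genes reached an unadjusted p under 0.05, with medians of 0.195, -0.033, -0.226 and 0.084, and 0 genes of the list passed an adjusted p of 0.05. At the unadjusted p this was 27.3%, 3.03%, 24.2% and 0% of the list, against 6.89%, 3.42%, 4.75% and 5.85% of all probes. The neqc alternative was not run. The 4 dim genes carry little above the lowest signals.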
